A study of Equus caballus with 4 samples.

Results

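The genes of 10 myosin heavy chains were followed on 4 arrays of equine satellite cells: *MYH1*, *MYH2* and *MYH4* (adult fast), *MYH3* and *MYH8* (developmental), *MYH6* and *MYH7* (slow and cardiac), *MYH9* and *MYH10* (nonmuscle) and *MYH11* (smooth muscle). Their probes were the noncontrol probes that carry one of these 10 symbols in the array files, whatever the case of the letters. That rule found 19 probes for 9 of the 10 genes, among 43603 probes on the array, and no probe carried the symbol *MYH6*. Of the 19 probes, 9 probes of 7 genes gave enough signal to be tested. In GO-treated cells *MYH8* was lower than in control cells by 2.11-fold, *MYH3* by 1.78-fold and *MYH7* by 1.66-fold. *MYH2* was lower by 2.16-fold, but its dim probe passed the filter on low signals through the control channel alone. Of all 9500 tested genes 5.37% were lower and 3.31% higher. None of the nonmuscle and smooth muscle genes *MYH9*, *MYH10* and *MYH11* passed the test.

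Satellite cells are the stem cells of muscle fibers. Here they had been isolated from the *m. semitendinosus* of horses (per the methods, 6 colts of 6 months of age), expanded, and kept for 48 h in differentiation medium. They then received 0.125 μM gamma-oryzanol (GO), a mixture of ferulic acid esters from rice bran, for 24 h, in 0.04 μl/ml DMSO as vehicle. Control cells received the same volume of DMSO, and both were harvested on day 3 of differentiation. On each of the 4 two-color arrays the GO sample was labeled with Cy5 and the control with Cy3. No dyes were exchanged, so what a dye does to a probe and what GO does cannot be told apart, and all arrays were on 1 slide. The labels call the arrays biological replicates, but whether each is another horse or another culture of the cell line selected in the methods is not stated in the sources used here. The p-values therefore measure the spread between these 4 arrays.

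Myosin II is a motor built from a pair of heavy chains, each of which carries an ATP-driven head and binds 2 kinds of light chain. In skeletal muscle the heavy chain sets how fast a fiber contracts, and fibers are typed by it. A muscle that forms anew first makes the embryonic chain *MYH3* and the perinatal chain *MYH8*, together with the slow chain *MYH7*, and switches to the adult fast chains 2A (*MYH2*), 2X (*MYH1*) and 2B (*MYH4*) later. The nonmuscle chains *MYH9* and *MYH10* drive cortical tension, migration and division in nearly every cell, and *MYH11* is the chain of smooth muscle. In the horse *MYH4* is listed by RefSeq (TB-T2T assembly) as a transcribed pseudogene.

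On EquCab1, the build of the array design, the probes of *MYH8*, *MYH4*, *MYH1*, *MYH2* and *MYH3* follow each other in this order on chromosome 11, which is the order of the sarcomeric cluster. The *MYH10* probe lies apart on the same chromosome (chr11:50142454-50142513), the *MYH9* probe on chromosome 28 (chr28:33588151-33589267), and the *MYH11* probe on chromosome 13 (chr13:12217726-12218090). The *MYH7* probes are on sequence not yet placed on a chromosome (chrUn:181223624-181223681 for the one used below). No genome of this build was used here, so exons and introns were not assigned. Where a 60-base probe covers more than 60 bases of the genome, as for *MYH1*, *MYH2*, *MYH9* and *MYH11*, its interval must contain bases that are absent from the transcript.

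How well a probe separates near-identical chains decides how its value can be read, so the probes with a bearing on the adult fast chains are shown first. The *MYH1* probe lies on the minus strand at chr11:51780579-51782362 and the tested *MYH2* probe on the minus strand at chr11:51808152-51809900. Both detect the same stretch of the chain: aligned without gaps over 55 bases they have 46 identical bases, which are in capitals.
MYH1: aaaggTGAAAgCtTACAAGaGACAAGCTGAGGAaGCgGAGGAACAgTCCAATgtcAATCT
MYH2: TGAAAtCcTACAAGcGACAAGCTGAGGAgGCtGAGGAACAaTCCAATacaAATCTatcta
RNA of one of these chains that binds to the probe of the other cannot be told apart from its own.

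The *MYH3* probe (minus strand, chr11:51904825-51904884) shares 20 bases, in capitals, with a probe that the files name *MYH15*. That *MYH15* probe stood out from background on 1 of 4 arrays in each channel, and that of *MYH3* on all 4.
MYH3: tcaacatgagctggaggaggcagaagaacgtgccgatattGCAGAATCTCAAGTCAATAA
The *MYH8* probe (minus strand, chr11:51670611-51670670) holds a 19-base run that occurs in only 3 probes of the array, those of *MYH8*, *MYH4* and *MYH1* (the second *MYH1* probe).
MYH8, MYH4 and MYH1: AAGAAATGCACAAAATGTG
Those *MYH4* and *MYH1* probes did not stand out from background in any GO sample, and in control that of *MYH1* did so on 1 array and that of *MYH4* on 0. Over the 33 pairs of tested probes of different heavy chain genes, the longest run of shared bases was 8 bases. Probes were compared only with each other, and they lie at different places of their transcripts. Whether RNA of another chain binds a probe cannot be read from this. The tested probes of *MYH9* and *MYH11* are shown for comparison, with no part marked.
MYH9: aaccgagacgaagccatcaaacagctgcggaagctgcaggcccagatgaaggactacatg
MYH11: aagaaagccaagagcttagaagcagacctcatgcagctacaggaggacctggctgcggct

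Probes of 2 genes at the end of the transcript hold AATAAA, the hexamer that precedes a poly(A) tail (capitals in the 30-base stretches that follow). It was present in all 3 *MYH7* probes and in 5 of 8 *MYH2* probes. On the same strand it was present in 8.64% of all probes of the array, and on either strand in 11.9%.
MYH7: tggaggaagcagAATAAAgcaattttcctt
MYH2: tactgcaaaggaAATAAAgagcataaggta
The 3 *MYH7* probes are copies of 1 site shifted by single bases, and were all bright. The 7 *MYH2* probes near the transcript end each overlap at least 1 other, and none of them was well above background in either channel on any array.

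Values are given as processed signals, the fluorescence of a spot in arbitrary units after the authors' background and dye correction, and as log2 ratios of GO over control. A probe was tested if it was well above background on all 4 arrays in at least one channel, which left 26832 probes. It was called when its adjusted p in limma (Benjamini-Hochberg, over those probes) did not exceed 0.05 and its fold change was 1.3 or more. Of the 9 tested heavy chain probes 6 were called lower and 0 higher. Over all tested probes 5.61% were called lower and 3.33% higher. With the brightest tested probe of each gene, 4 of 7 heavy chain genes were called lower and 0 higher, beside 5.37% lower and 3.31% higher of 9500 genes. The median log2 ratio of the 4 sarcomeric genes was -0.95, that of *MYH9*, *MYH10* and *MYH11* was 0.21, and that of all tested genes was 0.002. These counts and the sarcomeric median include *MYH2*, which passed the filter only through control, where it is high. Where both channels had to be above background *MYH2* was not tested, 5 of 8 probes and 3 of 6 genes were called lower, and 4.93% of all probes tested then were lower.

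**Figure D1:**
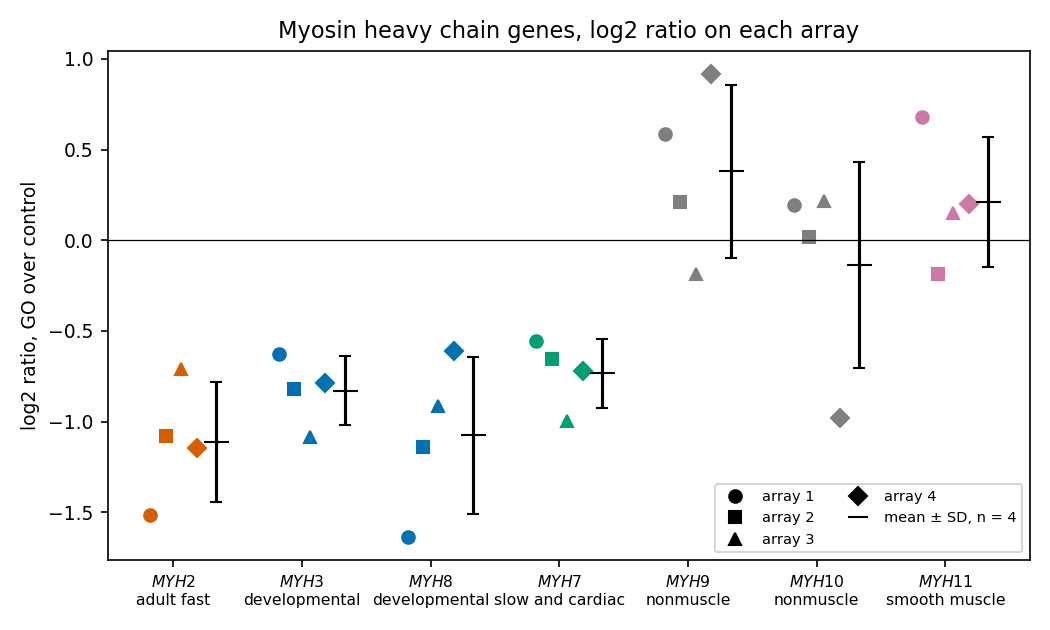
Log2 ratio of GO over control (vertical axis) on each of 4 arrays for the brightest tested probe of 7 heavy chain genes, with the mean and SD beside the points. All 16 points of the 4 sarcomeric genes lie below 0, between -1.63 and -0.56, whereas *MYH9*, *MYH10* and *MYH11* have points on both sides of 0.

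The embryonic chain *MYH3* gave control signals of 73264, 87546, 94635 and 67971 on arrays 1 to 4, and GO signals of 47416, 49521, 44660 and 39389. The highest GO signal was below the lowest control signal, so the channels did not overlap. The log2 ratios were -0.63, -0.82, -1.08 and -0.79, with a mean of -0.83 ± 0.19 (SD, n = 4; limma, adjusted p = 0.00338), the largest fall being on array 3. Leaving out any 1 array kept the mean between -0.90 and -0.75.

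For the slow chain *MYH7*, which is also the main chain of the adult heart ventricle, the brightest of the 3 probes gave control signals of 58417, 58737, 62802 and 50372 and GO signals of 39684, 37251, 31415 and 30590. Again every GO signal was below every control signal. Its log2 ratios of -0.56, -0.66, -0.999 and -0.72 showed, like those of *MYH3*, the smallest fall on array 1 and the largest on array 3. The mean was -0.73 ± 0.19 (SD, n = 4; limma, adjusted p = 0.00485). The other 2 probes, which share 59 of its 60 bases and are no independent evidence, had means of -0.68 and -0.72 and were called lower too.

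The perinatal chain *MYH8* fell from control signals of 967, 725, 507 and 451 to GO signals of 311, 328, 269 and 295. The GO signals were close to each other, and the control signals differed more between arrays, so the log2 ratios were spread from -1.63 on array 1 through -1.14 and -0.92 to -0.61 on array 4. Their mean was -1.08 ± 0.43 (SD, n = 4; limma, adjusted p = 0.00824). The channels did not overlap, and without the array of the largest fall the mean was -0.89.

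Of the adult fast chains only *MYH2*, the 2A chain, could be tested. Its control signals were 86.8, 69.6, 43.0 and 36.3, well above background on all 4 arrays, and its GO signals were 30.4, 33.0, 26.3 and 16.4, well above background on 3 of 4. The log2 ratios were -1.52, -1.08, -0.71 and -1.14, with a mean of -1.11 ± 0.33 (SD, n = 4; limma, adjusted p = 0.00462). This signal was close to the dimmest that counted as well above background, which over the 4 arrays was 11.9 to 17.5 for control and 15.2 to 30.01 for GO. The size of the fall depended on the background correction: it was -0.39 with normexp and loess, still called lower.

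The 2X chain *MYH1* was not tested. Its brighter probe gave control signals of 25.9, 12.6, 9.44 and 7.02 and GO signals of 25.2, 5.09, 4.50 and 6.98, and counted as well above background in control on 2 arrays and in GO on 1. The log2 ratios of -0.04, -1.31, -1.07 and -0.01 therefore rest mostly on signals at background. The *MYH4* probe was not well above background in either channel on any array, nor were 7 of the 8 *MYH2* probes. The signals of the 10 untested heavy chain probes lay between 2.47 and 25.9, and in 17 of 28 cases the deposited ratio of those 7 *MYH2* probes was exactly 0. So among adult fast chains a difference was detectable at these signals for *MYH2* alone, on 1 probe of 8.

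**Figure D2:**
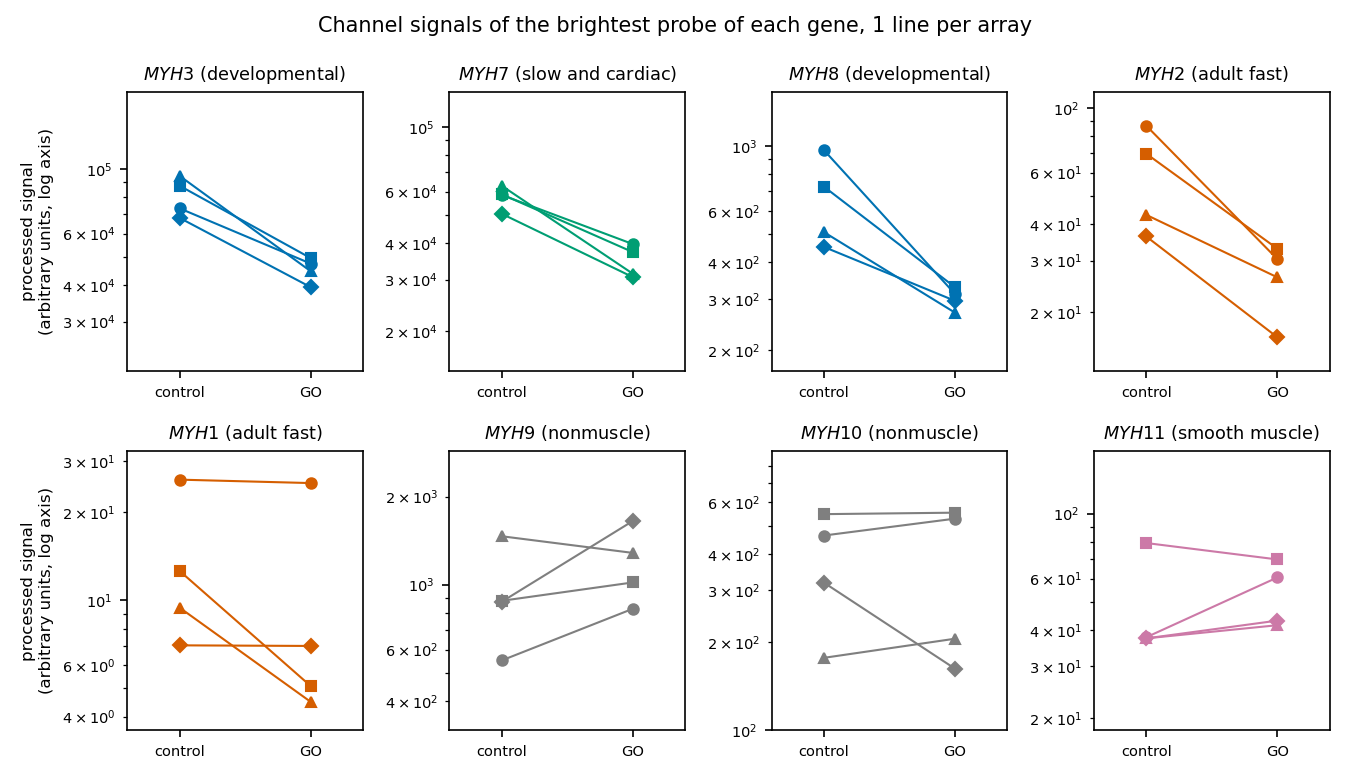
Processed signal in arbitrary units (log axis) in the control and GO channels for the brightest probe of 8 heavy chain genes. Lines join the channels of 1 array (circle, array 1; square, array 2; triangle, array 3; diamond, array 4), and they fall on all 4 arrays for *MYH3*, *MYH7*, *MYH8* and *MYH2*, whereas *MYH1* lies between 4.50 and 25.9, around background.

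The nonmuscle chain *MYH9*, a chain of stress fibers and the cell cortex, gave control signals of 551, 881, 1464 and 874 and GO signals of 827, 1018, 1284 and 1651. The signal in GO was higher on arrays 1, 2 and 4 and lower on array 3, and the channels overlapped. The log2 ratios were 0.59, 0.21, -0.19 and 0.92, with a mean of 0.38 ± 0.48 (SD, n = 4; limma, adjusted p = 0.160) and a 95% interval from -0.03 to 0.79. An increase of up to 1.73-fold lies within this interval.

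For *MYH10*, the chain of growth cones and dividing cells, the control signals were 463, 547, 176 and 319 and the GO signals 528, 554, 205 and 162. Its log2 ratios were 0.19, 0.02, 0.22 and -0.98, so array 4 alone was clearly below 0. The mean was -0.14 ± 0.57 (SD, n = 4; limma, adjusted p = 0.659), with a 95% interval from -0.61 to 0.34, and turned to 0.14 without array 4. A further probe, which the files describe as *MYH10* without giving it the symbol, gave control signals of 2953, 2435, 2151 and 2058 and GO signals of 2543, 2212, 2412 and 2225. Its log2 ratios were -0.22, -0.14, 0.17 and 0.11, with a mean of -0.02 ± 0.19 (SD, n = 4; limma, adjusted p = 0.893), and the value on array 4 was not low there.

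The smooth muscle chain *MYH11* gave control signals of 37.8, 79.3, 37.4 and 37.4 and GO signals of 60.5, 69.7, 41.5 and 43.1, well above background throughout. GO was higher on arrays 1, 3 and 4 and lower on array 2. The log2 ratios of 0.68, -0.19, 0.15 and 0.20 had a mean of 0.21 ± 0.36 (SD, n = 4; limma, adjusted p = 0.294) and a 95% interval from -0.10 to 0.53. The lower ends of the intervals of *MYH9*, *MYH10* and *MYH11* were above the means of the 4 sarcomeric genes, which lay between -1.11 and -0.73. The interval of *MYH10* overlapped that of *MYH7* (-0.93 to -0.54), however. Without the lowess step of the dye normalization *MYH10* was at -0.12, beside *MYH3* at -0.12 and *MYH7* at -0.16. In that setting *MYH9* was at 0.42, *MYH11* at 0.15, *MYH8* at -1.04 and *MYH2* at -1.19. The difference between the classes was not tested, because the genes were chosen with results known.

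Array by array, the mean log2 ratio of the 4 sarcomeric genes was -1.08, -0.92, -0.92 and -0.82 on arrays 1 to 4. The mean of *MYH9*, *MYH10* and *MYH11* was 0.49, 0.01, 0.06 and 0.05. The sarcomeric mean was thus below the other on each array, also without *MYH2*, a comparison added after the data were seen (-0.93, -0.87, -0.99 and -0.71). Single genes were not separated on array 4. There *MYH10*, at -0.98, was below *MYH3* (-0.79), *MYH7* (-0.72) and *MYH8* (-0.61), and the mean of 0.05 includes *MYH9* at 0.92. Within the sarcomeric genes the arrays were not ordered alike: *MYH2* and *MYH8* fell most on array 1, where *MYH3* and *MYH7* fell least.

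**Figure D3:**
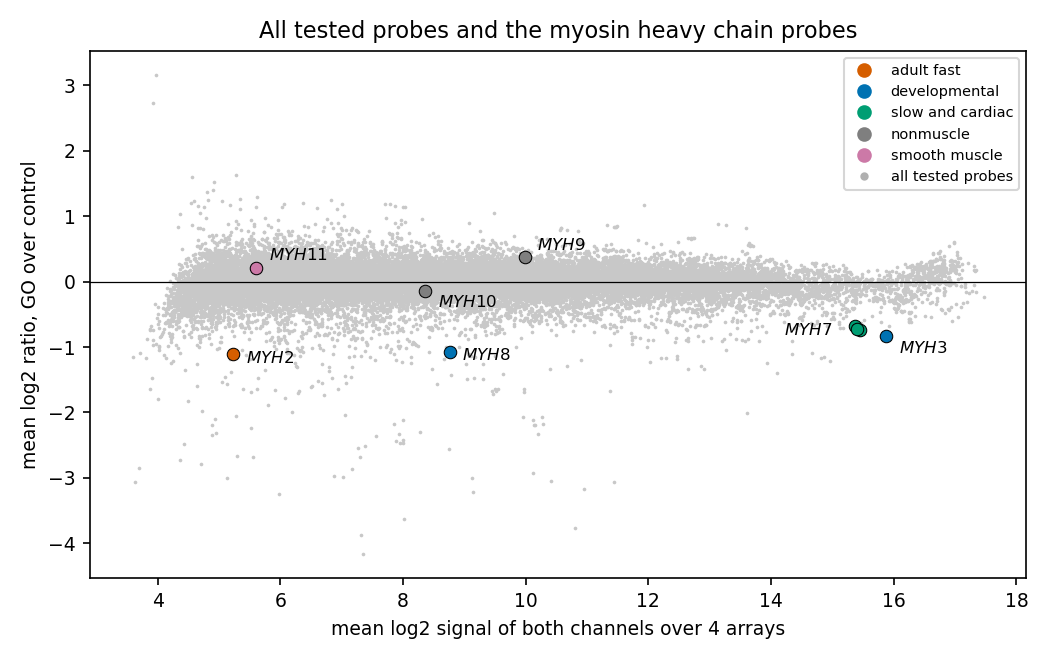
Mean log2 ratio of GO over control (vertical axis) against the mean log2 signal of both channels over 4 arrays (horizontal axis) for 26832 tested probes (grey) and the 9 tested heavy chain probes (colored by class). The probes of *MYH3* and *MYH7* stand below nearly all grey probes at the bright end, *MYH2* and *MYH8* lie among the scattered grey probes under its dense part, some of which are lower still, and *MYH9*, *MYH10* and *MYH11* lie within the dense part.

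The *MYH3* and *MYH7* probes were among the brightest on the array, where the dye normalization matters most. In the deposited ratios the median of the 619 tested probes at least as bright as the dimmest *MYH7* probe was -0.01, and 0 of them had a lower mean than *MYH3*. Without lowess, on background-subtracted signals with each array centred on its median, the same 619 probes had a median of 0.81. On that scale *MYH3* was at -0.12 and *MYH7* at -0.16 and neither was called, while *MYH2* (-1.19) and *MYH8* (-1.04) were called lower. Relative to the median of these 619 probes *MYH3* was at -0.83 in the deposited ratios, -0.88 with normexp and loess, and -0.93 without lowess. Most of the 619 were brighter than *MYH3*, which ranked 486 of 26832 in brightness, so this is not a comparison at equal brightness. A pair of highly expressed genes of other pathways, *GAPDH* (glycolysis) and *ACTB* (cytoplasmic actin), had log2 ratios of -0.04 ± 0.13 and -0.05 ± 0.16 (SD, n = 4), not called in the deposited ratios. These turned to 0.34 and 0.32 with normexp and loess and to 0.93 and 0.91 without lowess. Of the 619 bright probes 220 were called higher and 9 lower with normexp and loess, and 573 higher and 0 lower without lowess.

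**Figure D4:**
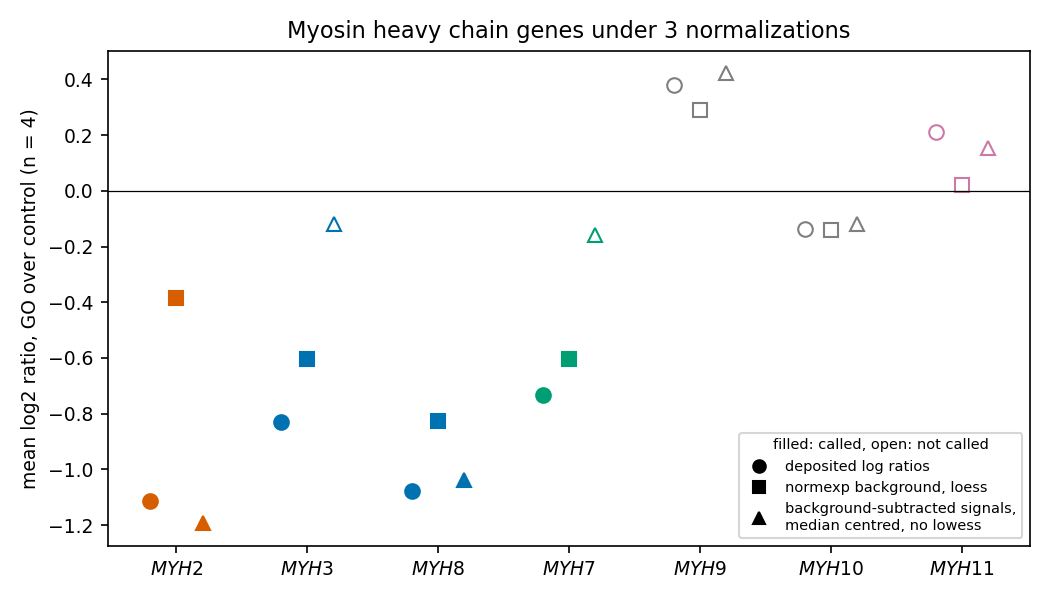
Mean log2 ratio of GO over control (vertical axis, n = 4) of 7 heavy chain genes under 3 normalizations, filled where called. The points of *MYH8* stay between -1.08 and -0.83 and filled, *MYH2* ranges from -1.19 to -0.39 and stays filled, and *MYH3* and *MYH7* are open at -0.12 and -0.16 without lowess.

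Further probes are described in the files as heavy chains but fall outside the symbol rule, and were looked at after their values were seen. For *MYH6*, the alpha chain of the heart, whose gene lies next to *MYH7*, 2 probes share 40 bases. The first of them (chrUn:181253304-181253724) gave control signals of 6757, 8721, 6769 and 5820 and GO signals of 5036, 5485, 3751 and 3697, a mean log2 ratio of -0.65 ± 0.18 (SD, n = 4; limma, adjusted p = 0.00562). The second was far dimmer, with control signals of 28.9, 37.6, 33.7 and 25.2 and GO signals of 29.2, 34.8, 34.7 and 13.1. It was well above background on 4 arrays in control and 3 in GO. Its log2 ratios were 0.01, -0.11, 0.04 and -0.94, and it was not called (mean -0.25 ± 0.47, SD, n = 4; limma, adjusted p = 0.323). The 2 probes of this transcript thus differed in brightness as well as in ratio. Whether *MYH7* RNA binds the first probe was not tested. A probe described as *MYH7B*, a slow-type chain of muscle spindles and extraocular muscle, was called lower at -0.64 ± 0.09 (SD, n = 4; limma, adjusted p = 0.00288), although not with normexp and loess (-0.29). Its sequence was identical to the *MYH2* probe at 37 of 55 aligned bases. A bright probe described as the nonmuscle chain *MYH14* gave control signals of 59905, 54123, 70878 and 57432 and GO signals of 62486, 60797, 48879 and 41402. Its log2 ratios were 0.06, 0.17, -0.54 and -0.47, and it was not called (mean -0.19 ± 0.36, SD, n = 4; limma, adjusted p = 0.337). The extraocular chain *MYH13* and *MYH15* were not tested.

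The other genes that work with these chains were taken from lists fixed by role. Of their 61 symbols 44 were on the array and 36 were tested, of which 15 were called lower and 1 higher, beside 5.37% and 3.31% of all tested genes. Without lowess the balance was another, with 10 lower and 5 higher. Over all tested probes it shifted as well, to 6.02% lower and 8.31% higher, from 5.61% and 3.33%. The sarcomeric light chains, which stabilize the lever arm of the head, were lower in 3 of 5 tested genes with 0 higher, and their median log2 ratio was -0.47. These were *MYL3*, the slow essential light chain (-0.53 ± 0.13), *MYL2*, the slow regulatory light chain (-0.51 ± 0.12), and *MYL4*, the embryonic essential light chain (-0.47 ± 0.12; SD, n = 4 for each; limma, adjusted p from 0.00640 to 0.00811). Each was lower on all 4 arrays, but without lowess *MYL2* was at -0.08 (adjusted p = 0.578) and *MYL4* turned to 0.016, and neither was called. Of the nonmuscle and smooth muscle light chains 2 were tested and 0 called, with a median of 0.18. The one with the smaller p was *MYL9*, the regulatory light chain of smooth muscle, at 0.29 ± 0.27 (SD, n = 4; limma, adjusted p = 0.106). Without lowess it was called higher, at 0.48 (limma, adjusted p = 0.00281).

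Among partners of the thick filament 2 of 5 tested genes were lower and 0 higher, beside 5.37% and 3.31% of all tested genes. Their median was -0.37. The M-band proteins *MYOM2* (-0.71 ± 0.19) and *MYOM3* (-0.52 ± 0.11; SD, n = 4; limma, adjusted p = 0.00514 and 0.00578) cross-link the filaments at their middle. Of the genes for folding and turnover of myosin 5 of 9 were lower and 1 higher, beside the same shares of all tested genes, with a median of -0.45. The 4 largest falls were those of *TRIM63* (MuRF1, a ubiquitin ligase of myosin), at -0.77 ± 0.18, *UNC45B*, the muscle chaperone of the myosin head, at -0.58 ± 0.40, and the MuRF relatives *TRIM55* and *TRIM54*, at -0.52 ± 0.18 and -0.51 ± 0.23 (SD, n = 4; limma, adjusted p = 0.00380, 0.0391, 0.0102 and 0.0174). The call of *UNC45B* was lost without array 2, 3 or 4, and that of *TRIM54* without array 2 or 3. The 1 gene that was higher, *FBXO32* (atrogin-1, another ubiquitin ligase of atrophy; named after its values were seen), was at 0.40 ± 0.26 (SD, n = 4; limma, adjusted p = 0.0419), and its call was lost without any 1 of the 4 arrays.

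Of the transcription factors that control heavy chain genes 5 of 15 tested were lower and 0 higher by their brightest probe. Beside this, 5.37% of all tested genes were lower and 3.31% higher. The median of the factors was -0.26. For 2 uncalled genes, named after their values were seen, other probes were called. *TBX15* was at 0.37 ± 0.10 (SD, n = 4; limma, adjusted p = 0.0141), only 1.29-fold, but 2 of its 4 probes were called higher. Of the 2 probes of *MEF2C* 1 was called lower, at -0.63, while its brightest was at -0.34. The largest falls were those of *MYF5*, which commits cells to the muscle lineage (-0.93 ± 0.04), *SIX4* and its cofactor *EYA1* (-0.48 ± 0.13 and -0.42 ± 0.16), and *MYOG*, which drives terminal differentiation (-0.40 ± 0.11; SD, n = 4; limma, adjusted p = 0.00102, 0.00788, 0.0163 and 0.0123). The log2 ratios of *MYF5* lay between -0.97 and -0.88. All 6 probes of *MYF5* were called lower, but only 1 of the 2 probes of *MYOG*. The calls of *SIX4*, *EYA1* and *MYOG* were lost with normexp and loess, and leaving out array 2, 3 or 4 (*EYA1*) or array 2 or 3 (*MYOG*) lost them as well. The *EYA1* probe was well above background on 4 arrays in control and 3 in GO, so like *MYH2* it passed the filter through the channel where it is high. Where both channels had to be above background it was not tested. In that setting 14 of 35 partner genes were lower and 1 higher, beside 4.93% and 3.46% of all probes tested then.

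**Figure D5:**
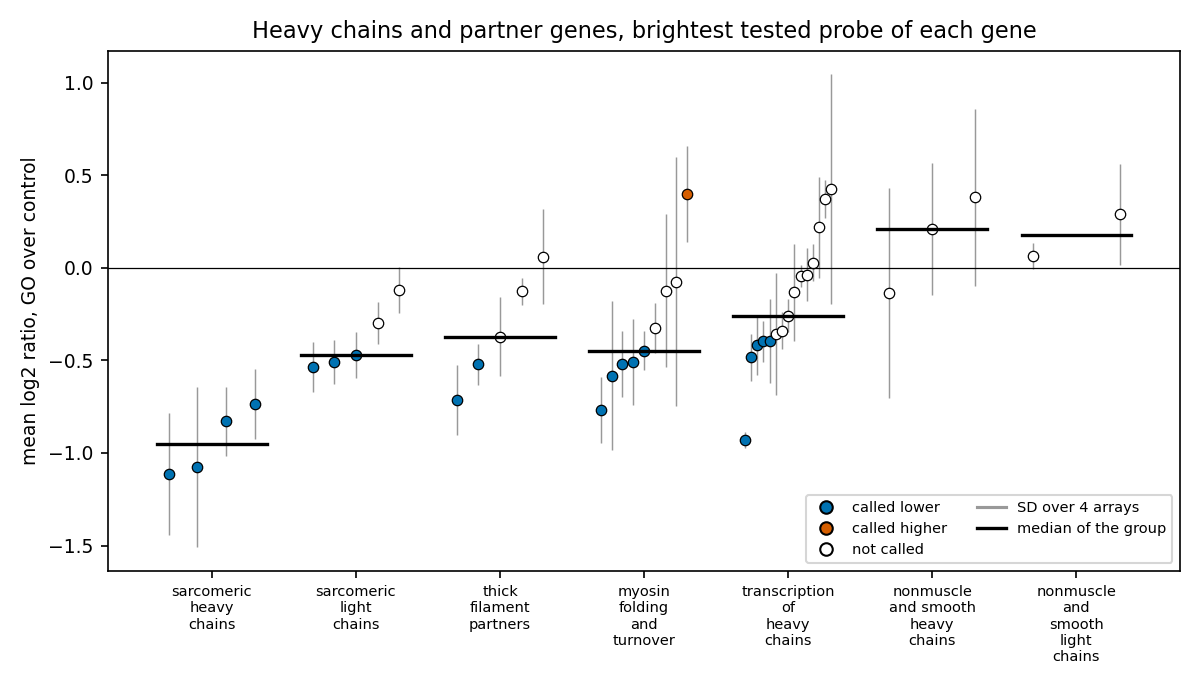
Mean log2 ratio of GO over control (vertical axis) of each tested heavy chain and partner gene, with the SD over 4 arrays and the median of each group. The 4 sarcomeric heavy chain genes lie between -1.11 and -0.73, the called light chains between -0.53 and -0.47, and the group medians of the nonmuscle and smooth muscle heavy and light chains are at 0.21 and 0.18.

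Markers of the cell types that such a culture can hold were read beside the heavy chains. Of 11 myogenic markers 7 were tested and 5 were lower and 0 higher, beside 5.37% and 3.31% of all genes. Among them *ACTA1* (skeletal actin) was at -0.64 ± 0.22, *DES* (desmin) at -0.61 ± 0.24 and *TNNC1* (slow troponin C) at -0.61 ± 0.15 (SD, n = 4; limma, adjusted p = 0.00825, 0.0113 and 0.00560). Without lowess they were at -0.05, -0.30 and -0.18 and none of these 3 was called, and *DES* also lost its call without array 2 (limma, adjusted p = 0.0545). The summed signal of the myogenic markers was 106400 to 152300 in control and 64270 to 94900 in GO over the 4 arrays, without overlap. Most of this sum was the signal of *ACTA1* (50318 to 73910 in control), *TNNC1* (29746 to 39301) and *DES* (18381 to 28634). It thus mainly repeats these 3 genes. The part of the shift of the myogenic markers in the values of the sarcomeric heavy chains was not tested. The RNA came from the whole culture, and fewer myogenic cells and less RNA per cell cannot be told apart.

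Of 8 tested fibroblast markers 0 were lower and 1 was higher, beside 5.37% and 3.31% of all tested genes. Among so few markers 0 lower is near the share of all genes, and the same goes for the lists below with 0 called. The higher marker was *PDGFRA* (0.87 ± 0.48; SD, n = 4; limma, adjusted p = 0.0199; not called without array 2, nor at 0.37 with normexp and loess). The summed signals of the fibroblast markers overlapped (311500 to 483800 in control, 324800 to 439800 in GO). *POSTN* (periostin; named after its values were seen) was lower on 4 of 4 arrays without passing the test, at -0.47 ± 0.35 (SD, n = 4; limma, adjusted p = 0.0512), and 2 of its 4 probes were called lower. Of the 9 probes of *COL1A2*, a chain of collagen I, 2 were called lower, while its brightest was at -0.05. In the other direction, 1 of the 2 probes of *DCN* was called higher, at 0.42, while its brightest was at 0.04. *COL1A2* and *DCN* too were named after their values were seen. Of 6 tested smooth muscle and pericyte markers 0 were called, with sums of 39960 to 63950 and 43170 to 58080. All 5 endothelial markers were at background, as were *CD3E*, *CD79A* and *ITGAM* of the leukocytes, whereas *CD14* and *CD68* were detected and not called. Of the adipocyte markers 3 of 4 were at background and 0 were tested. Of the cardiac markers *NPPA*, *NPPB* and *TNNI3* were detected and 0 of these 3 were called, and the 4 cardiac markers on the array summed to 233 to 348 in control and 227 to 337 in GO.

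Of all tested genes the one whose 4 log2 ratios were most like those of *MYH2*, the heavy chain with the largest mean fall in the deposited ratios, was *CXCR4*, a chemokine receptor of migrating cells. Its ratios were -1.49, -1.11, -0.68 and -1.21, a Euclidean distance of 0.084 over the 4 arrays among 9499 genes. The next were *GPC3*, a cell surface proteoglycan, and *INOS*, the inducible nitric oxide synthase, both at a distance of 0.49. The nearest heavy chain was *MYH8*, the fifth of all genes at 0.59. With normexp and loess *CXCR4* was at -0.21 and not called, and *MYH2*, at -0.39, had the smallest fall of the 4 sarcomeric genes, so both the choice of *MYH2* and this likeness rest on the deposited ratios. The dim *MYH2* probe had also passed the filter on low signals through control alone. Like *MYH2*, *CXCR4* was not tested where both channels had to be above background.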

How the data were processed

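The authors deposited the Feature Extraction output of 4 two-color arrays (version 10.10.1.1 per the file headers). Per the file headers the intensity values are processed signals (background subtracted, detrended, dyes normalized by a linear and a lowess step), and the deposited log10 values are ratios of Cy5 (GO) over Cy3 (control). Deposited flags mark spots well above background, 57.4 to 68.9% of noncontrol spots in a channel. Ratios were converted to log2, control and outlier spots were left out, and spots of a probe were averaged. limma 3.58.1 in R 4.3.3 tested the 4 ratios of each of 26832 probes against 0, two-sided, with eBayes and Benjamini-Hochberg adjustment. The script was tested on simulated data. Heavy chain probes follow the files' symbols. Other probes were named from the files, or through RefSeq by gene number (1684) or accession (427). Named beside the heavy chains were, per list, the called genes (at most 4, by size) or the gene of smallest p, and *GAPDH*, *ACTB* and the 3 genes of nearest pattern. The result of 1 fixed list is not reported here. The members, lists and rules were chosen with earlier results of these data known. The number of arrays limits the precision. Figures were drawn with matplotlib 3.10.9.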

Additional observations from a re-analysis of the deposited data

Results flagged for a closer look

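On 4 genes named above 1 array stood apart from the other 3, by a gap above the share of the range that Dixon's test allows 4 values. Chance flags about 1 in 20 such groups. The screen covered the 9 tested heavy chain probes, of which 3 are the copies of *MYH7*. It also took the brightest probe of each partner gene named by rule, and of *FBXO32*, *GAPDH* and *ACTB*. The 3 genes of nearest pattern and *PDGFRA*, *DES*, *ACTA1* and *TNNC1* made up the rest. For *MYH10* this was the log2 ratio of -0.978 on array 4. For *MYOM3* it was -0.358 on array 1, and for *SIX4* it was -0.293 on array 2, both the smallest falls of their genes. For *ACTB* it was 0.190 on array 1, the only array on which it was above 0.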

How the results depend on the processing

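With any 1 array left out, 6 heavy chain probes and 4 genes stayed called lower in each case. The partner genes called, 16 in all, ranged from 10 to 18, and 10 were left without array 2 or 3. The mean of *MYH10* ranged from -0.26 to 0.14 over these fits. A plain one-sample test without moderation called 0 heavy chain probes and 0 genes, 1 partner gene and, of all probes, 29 higher and 118 lower (7556 at an unadjusted p under 0.05). It left *MYH2* (-1.11), *MYH3* (-0.83), *MYH7* (-0.73) and *MYH8* (-1.08) at adjusted p from 0.0722 to 0.110. Centring on the median without lowess called 2 probes and 2 genes, with *MYH3* at -0.12 and *MYH7* at -0.16. It turned *MYL4* to 0.016, *GAPDH* to 0.93, *ACTB* to 0.91, the second *MYH10* probe to 0.091 and a probe described as *MYH14* (-0.19) to 0.47, and 42.0% of all calls were then lower in place of 62.7%. With normexp and loess *GAPDH* and *ACTB* turned to 0.34 and 0.32. Without the filter on dim probes 3 heavy chain probes, 2 genes and 9 partner genes were called, and *MYH2* (-1.11; adjusted p = 0.0562) and *MYH8* (-1.08; adjusted p = 0.0804) were not. More probes were tested then, 43603. With the channels as separate samples, without the replicate block that pairs them by array, 6 heavy chain probes and 4 genes were still called and 5 partner genes. The mean of the second *MYH10* probe, -0.019 in all, ranged from -0.081 to 0.046. The table of the whole series gave the same counts. *MYH2* could not be tested where both channels had to be above background. Except where given, the cause of these differences was not tested.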
